A study of Mus musculus with 6 samples.

Results

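The genes described here encode the nuclear subunits of oxidative phosphorylation in mouse hepatic stellate cells that lack Sept4 and in wild-type ones. They were taken by name: every platform symbol that starts with Nduf, Uqcr or Atp5 or with Cox4 to Cox8, together with Sdha, Sdhb, Sdhc, Sdhd, Cycs and Cyc1. This gave 81 genes of the 16446 different symbols on the array, measured by 82 probes, and Ndufs5 was the only member with more than 1 probe. Of the 81, 33 are subunits of complex I, 4 of complex II, 8 of complex III, 16 of complex IV and 15 of complex V. Cytochrome c (Cycs) stands alone, and Ndufa4, long listed with complex I, was counted with complex IV, where it is now placed. Another 4 symbols fit the naming rule but are not counted as subunits: Ndufaf1 (an assembly factor of complex I), Cox7a2l (a factor that joins complexes III and IV), Atp5s (now Dmac2l) and Cox4nb (now Emc8, a neighbour of Cox4i1).

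The study compared hepatic stellate cells, the retinoid-storing pericytes of the liver, from Sept4 knockout mice with those from wild-type mice. All mice of both genotypes had cirrhosis induced by carbon tetrachloride, a hepatotoxin, so no uninjured group was compared. Each genotype had 3 arrays with 1 colour, and each array gave a log2 signal for 23473 probes. Sept4 encodes a septin, a GTP-binding protein that forms filaments. The labels do not state the knockout allele, the strain, the age or sex of the mice, or whether an array held 1 mouse or a pool, although a labelling note, which speaks of tumour samples, names RNA from each mouse. The p-values therefore measure the spread between these arrays, which may be technical.

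Oxidative phosphorylation takes place in the inner mitochondrial membrane. Complexes I and II pass electrons to ubiquinone, complex III hands them to cytochrome c, and complex IV passes them to oxygen. Complexes I, III and IV pump protons, and complex V, the ATP synthase, lets them back to make ATP. Most subunits are encoded in the nucleus, and a few in mitochondrial DNA, which were not analysed here. The promoters of many of the nuclear genes are known to bind NRF1 and the ETS-family factor GABP.

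The probes named for these genes were bright. Their median signal of 11.48 lay above 95.8% of all probes. The 3 knockout arrays also had higher upper quartiles (7.82 to 7.84) and highest values (16.6 to 16.8) than the 3 wild-type arrays (7.70 to 7.73 and 15.7 to 15.8), while all medians were 5.02. Correlations across probes were 0.981 to 0.982 among knockout arrays, 0.967 to 0.971 between genotypes and 0.986 among wild-type arrays. The median log2 difference of all probes, knockout minus wild type, was 0.12, and that of the 2313 probes with a mean signal of at least 10 was 0.24. Quantile normalisation of the deposited signals brings these medians to 0.02 and 0.03, and values after it are given for the complexes and for many of the genes. Of the stellate cell markers, 12 of 12 were measured and 0 were at an array's lowest value. By the threshold given below, 8 were higher (66.7%) and 3 lower (25%). Their median signal was 10.1, and of probes with a signal of at least 10, 55.3% were called higher and 16.4% lower. The log2 summed signal of the markers was 15.97 to 16.02 on knockout arrays and 15.67 to 15.83 on wild-type arrays. Among the markers Lrat, Col3a1, Cygb, Lum and Dcn rose by 2.41, 2.09, 2.05, 1.24 and 0.91, while Col1a2, Acta2 and Des fell by 1.20, 0.56 and 0.41. No probe is named Sept4, so its level, which would check the genotype labels, was not analysed here.

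Promoters of the 4 largest rises and the 4 largest falls are shown because these genes share a pathway but moved in opposite directions. Each is the 250 bases before the start of the gene, 5′ to 3′, from RefSeq on GRCm38.p6. Capitals mark the core of the NRF1 motif (GCGCA and GCGC with any 1 base between them) and CCGGAAG, the core of the ETS motif that GABP binds, on either strand. Cox8b, Cox6a1, Ndufb8 and Atp5g2 were higher in the knockout, and Ndufc1, Ndufb4, Ndufs8 and Atp5h were lower. No matches overlap in these windows.
Cox8b, chr7:140900447-140900696, minus strand: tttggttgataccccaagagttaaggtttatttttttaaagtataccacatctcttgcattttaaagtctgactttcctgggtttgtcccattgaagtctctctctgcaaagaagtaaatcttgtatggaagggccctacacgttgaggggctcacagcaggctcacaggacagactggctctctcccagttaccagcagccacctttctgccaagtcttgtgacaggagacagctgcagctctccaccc
Cox6a1, chr5:115348959-115349208, minus strand: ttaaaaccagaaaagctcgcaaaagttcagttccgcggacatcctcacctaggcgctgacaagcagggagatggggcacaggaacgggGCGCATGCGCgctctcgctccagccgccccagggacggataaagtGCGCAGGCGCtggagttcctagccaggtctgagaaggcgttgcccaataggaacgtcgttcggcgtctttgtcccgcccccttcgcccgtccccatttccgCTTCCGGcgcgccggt
Ndufb8, chr19:44555443-44555692, minus strand: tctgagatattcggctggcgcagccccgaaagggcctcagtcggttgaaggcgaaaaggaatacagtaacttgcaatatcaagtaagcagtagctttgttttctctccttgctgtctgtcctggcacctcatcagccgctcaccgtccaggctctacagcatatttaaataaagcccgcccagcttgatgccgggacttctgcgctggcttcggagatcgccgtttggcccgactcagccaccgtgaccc
Atp5g2, chr15:102671048-102671297, minus strand: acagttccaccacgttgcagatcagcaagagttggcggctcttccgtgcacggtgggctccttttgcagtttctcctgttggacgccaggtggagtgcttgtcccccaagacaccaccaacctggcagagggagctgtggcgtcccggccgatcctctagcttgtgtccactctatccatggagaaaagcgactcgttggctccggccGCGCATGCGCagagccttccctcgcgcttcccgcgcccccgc
Ndufc1, chr3:51408956-51409205, minus strand: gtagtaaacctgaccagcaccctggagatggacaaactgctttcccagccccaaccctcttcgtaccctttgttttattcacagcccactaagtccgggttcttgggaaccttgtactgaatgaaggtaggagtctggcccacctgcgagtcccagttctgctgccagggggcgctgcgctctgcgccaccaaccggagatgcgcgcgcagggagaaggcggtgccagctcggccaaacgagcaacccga
Ndufb4, chr16:37654369-37654618, minus strand: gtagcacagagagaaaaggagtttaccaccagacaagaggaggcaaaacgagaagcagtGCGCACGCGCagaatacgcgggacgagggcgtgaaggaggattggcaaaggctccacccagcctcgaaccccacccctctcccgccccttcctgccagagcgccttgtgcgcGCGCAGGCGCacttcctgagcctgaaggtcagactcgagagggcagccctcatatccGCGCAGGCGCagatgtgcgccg
Ndufs8, chr19:3912775-3913024, minus strand: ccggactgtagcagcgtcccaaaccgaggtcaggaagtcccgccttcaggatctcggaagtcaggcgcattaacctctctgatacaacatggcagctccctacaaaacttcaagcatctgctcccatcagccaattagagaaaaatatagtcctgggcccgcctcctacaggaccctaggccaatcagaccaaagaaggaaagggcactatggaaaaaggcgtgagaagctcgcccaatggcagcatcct
Atp5h, chr11:115419920-115420169, minus strand: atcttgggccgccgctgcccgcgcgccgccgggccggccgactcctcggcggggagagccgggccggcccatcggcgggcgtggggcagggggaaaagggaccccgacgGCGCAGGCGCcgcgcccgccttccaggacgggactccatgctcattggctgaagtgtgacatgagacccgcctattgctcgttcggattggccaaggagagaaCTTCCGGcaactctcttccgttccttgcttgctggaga
Cox6a1 held the NRF1 core 2 times, Ndufb4 3 times, and Atp5g2 and Atp5h 1 time each, so that it stood in 2 genes that rose and in 2 that fell. Cox6a1 and Atp5h also held the ETS core. A letter match is a description and not a bound site.

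Promoter entries existed for 66 of the 81 members. The NRF1 core was in 13 of these genes (19.7%), and in 4.23% of all 27025 genes with an entry. Of the 13, 8 were higher in the knockout and 2 lower, and of the 53 without it 32 were higher and 5 lower. The ETS core was in 12 members (18.2%) and in 7.83% of all genes, and 7 of those 12 were higher and 2 lower. The median difference was 0.30 with and 0.25 without the NRF1 core, and 0.26 with and 0.27 without the ETS core.

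Most oxidative phosphorylation genes were higher in knockout cells, by small amounts. Differences are knockout minus wild type on the log2 scale, and a gene is said to rise or fall where limma's adjusted p over all probes was under 0.05. Of the 81 genes 48 rose (59.3%), 8 fell (9.88%) and 25 did not pass. Over all probes 26.7% were called higher and 16.0% lower, but among probes with a signal of at least 10 the shares were 55.3% and 16.4%. The 61 members that were this bright had 40 rises (65.6%) and 5 falls (8.20%), so their share of rises was near that of other bright probes. The median difference of the 81 genes was 0.29, a ratio of 1.22, and that of the bright members was 0.31. The 3 knockout arrays lay wholly above the wild-type arrays for 55 members and wholly below for 12, where 34.5% and 21.7% of all probes did so. These shares were not computed for bright probes, so this comparison is not matched for signal. With 3 arrays against 3, an exact permutation test of a single gene cannot give a two-sided p below 0.1.

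Scaling decided many of the small calls. After quantile normalisation 34 members were higher and 18 lower, where 22.3% of all probes were called higher and 20.2% lower, and of bright probes 38.9% and 33.1%. After cyclic loess 33 were higher and 20 lower, where the shares were 21.9% and 20.7%, and of bright probes 38.5% and 34.6%. The bright members alone had 28 higher and 14 lower after quantile normalisation, and 27 and 16 after cyclic loess. In all, 32 rises and all 8 falls passed in the same direction as deposited and after both scalings. Of all probes 21.6% were called higher and 15.7% lower in this stricter sense, and of bright probes 37.6% and 16.4%. The 32 and the 8 include members that were not bright, so they are not matched to the bright probes. The 32 genes were 17 of complex I, 1 of complex II, 2 of complex III, Cycs, 6 of complex IV, 3 of complex V, and Cox7a2l and Ndufaf1. The 8 falls were Ndufc1, Ndufb4, Ndufs8 and Ndufb5 of complex I, Cox7c of complex IV, and Atp5h, Atp5a1 and Atp5j of complex V. A rise turned to a negative difference in 4 genes: Atp5f1, Cox6c and Ndufs3 after both scalings, and Cox8a after cyclic loess.

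**Figure D1:**
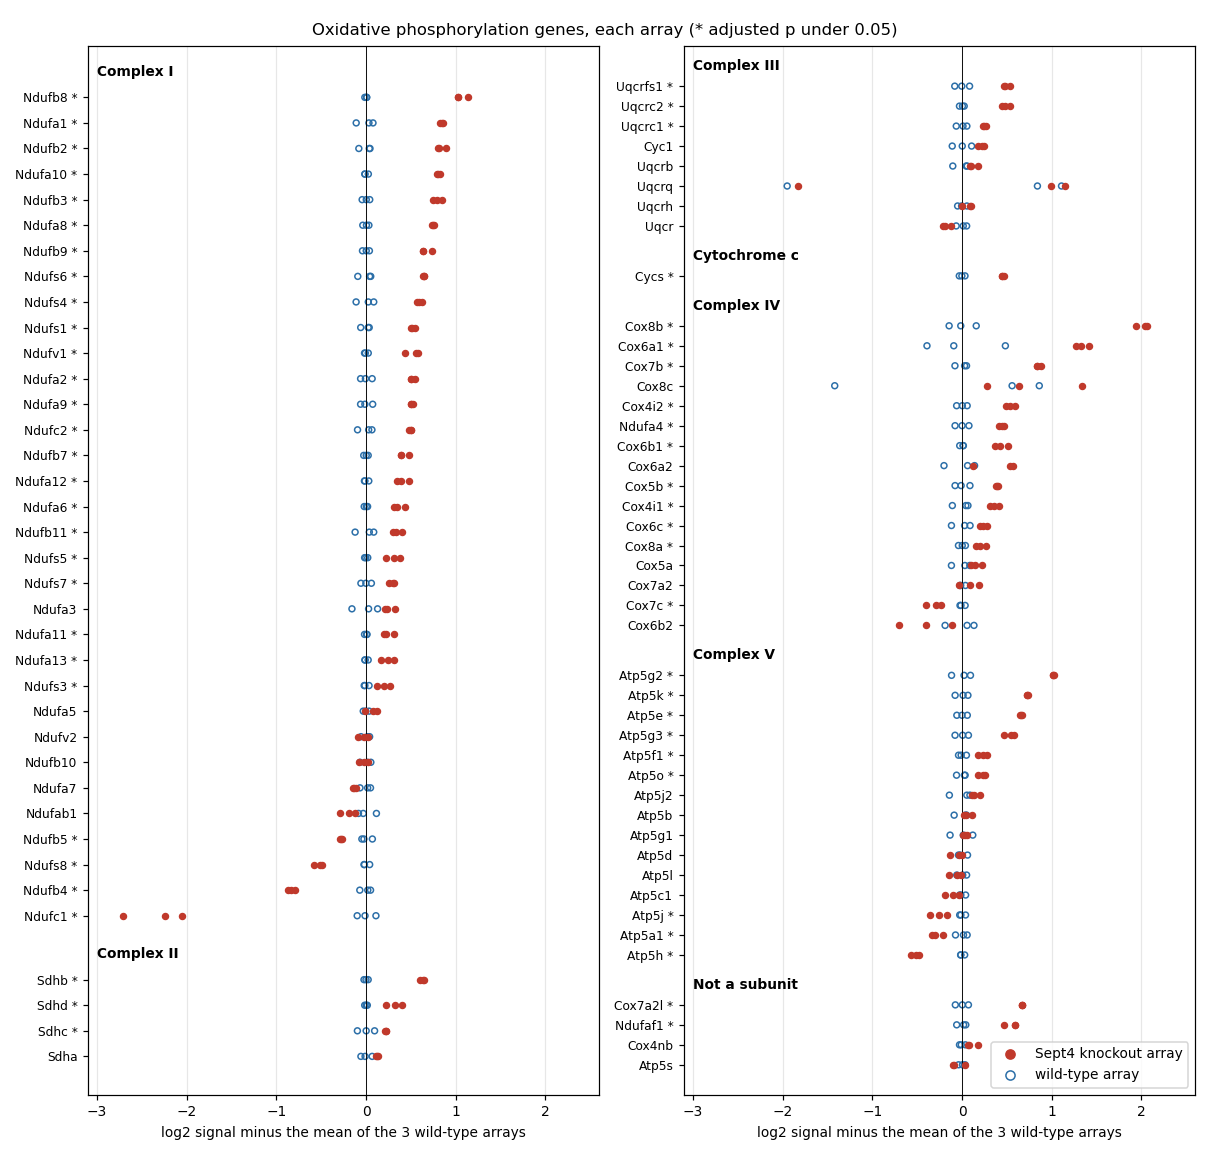
Each row is a gene, grouped by complex, and each point an array, as its log2 signal minus the mean of the 3 wild-type arrays. Filled points are Sept4 knockout arrays and open points wild-type arrays, and an asterisk marks an adjusted p under 0.05. Most filled points lie right of the open ones in complexes I, II and IV, those of Ndufc1 lie farthest left, and Uqcrq and Cox8c scatter widely in both genotypes.

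**Figure D2:**
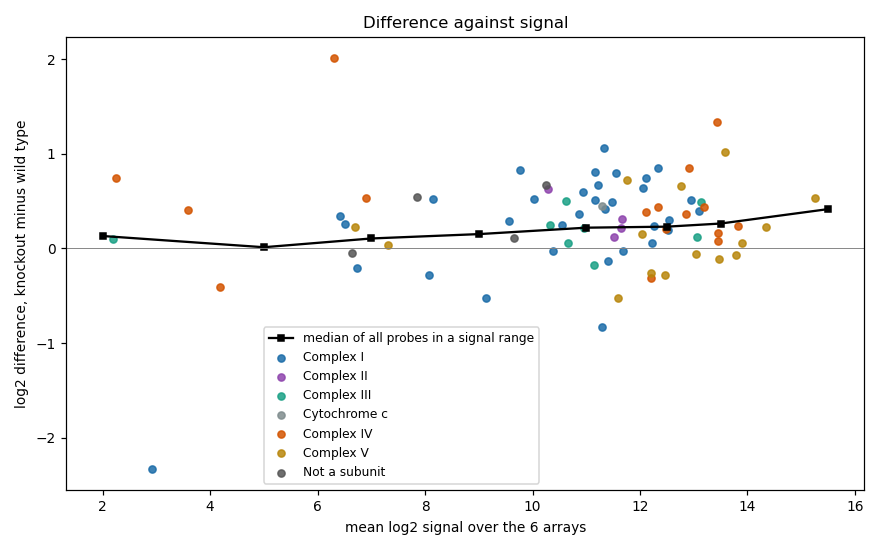
The vertical axis is the log2 difference, knockout minus wild type, and the horizontal axis the mean log2 signal over the 6 arrays. Points are the 81 genes by complex, and squares joined by a line are medians of all probes in ranges of signal, which climb from 0.01 at signals of 4 to 6 to 0.42 at 14 and above. Most complex I genes lie above that line and most complex V genes below it.

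**Figure D3:**
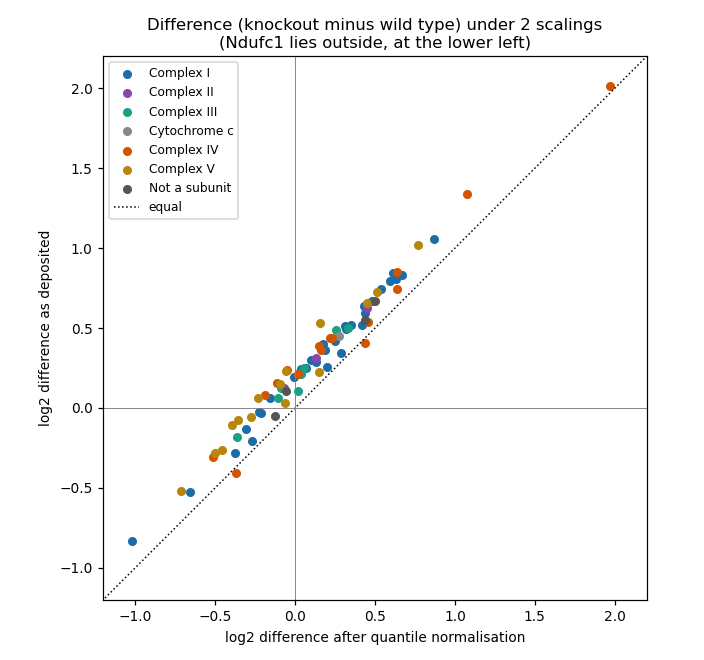
Each point is a gene, with its log2 difference (knockout minus wild type) as deposited on the vertical axis and after quantile normalisation on the horizontal axis, coloured by complex. Bright genes lie above the dotted line of equality, so quantile normalisation lowers their differences, and Cox8b stays near 2 on both axes (2.02 and 1.97).

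Complex I, the NADH dehydrogenase that oxidises NADH, had the most genes and the most rises. Of its 33 subunit genes 23 rose (69.7%), 4 fell and 6 did not pass, with a median difference of 0.36. Their median signal was 11.2, and of probes with a signal of at least 10, 55.3% were called higher and 16.4% lower. After quantile normalisation 18 of the 33 were higher and 9 lower, with a median of 0.20, where 38.9% and 33.1% of bright probes were called. After cyclic loess 17 of the 33 were higher and 9 lower. Ndufb8, a subunit of the membrane arm, had signals of 11.93, 11.83 and 11.82 in knockout cells, against 10.81, 10.81 and 10.79 in wild-type cells. Its knockout arrays all lay above its wild-type ones, by 1.06 ± 0.05 (SE), or 2.08-fold (limma, adjusted p = 0.00046). The membrane-arm subunit Ndufa1 had 12.73, 12.76 and 12.77 in knockout cells, against 11.98, 11.94 and 11.79 in wild-type cells, and rose by 0.85. Ndufb2, also of the membrane arm, had 10.15, 10.15 and 10.23, against 9.38, 9.39 and 9.26 in wild-type cells, a rise of 0.83. Ndufa10, which sits on the matrix face of the membrane arm, had 11.56, 11.58 and 11.55 in knockout cells, against 10.78, 10.74 and 10.74 in wild-type cells, and rose by 0.80. None of these 4 genes overlapped between genotypes, and neither did 56.2% of all probes. The 4 were picked for large differences that passed, so their separation adds no support. After quantile normalisation they still rose, by 0.87, 0.61, 0.67 and 0.63.

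The 4 falls of complex I as deposited passed after both scalings as well. Ndufc1, a small membrane-arm subunit, had 2.04, 1.38 and 1.85 in knockout cells, against 3.99, 4.20 and 4.08 in wild-type cells. It fell by 2.33 on the log2 scale, with an SE of 0.19 and an adjusted p of 0.000902, but its probe was dim, so the size is imprecise. Its partner in the membrane arm, Ndufc2, rose by 0.49 and was bright. Ndufb4, another membrane-arm subunit, had 10.85, 10.88 and 10.92, against 11.74, 11.77 and 11.65 in wild-type cells, and was 1.78-fold lower. Its groups did not overlap, and its adjusted p was 0.00064. Ndufs8, a core subunit that carries iron-sulfur clusters, had 8.88, 8.81 and 8.90 in knockout cells, against 9.43, 9.37 and 9.37 in wild-type cells, and fell by 0.53. Ndufb5 fell by 0.28 and is the remaining fall.

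**Figure D4:**
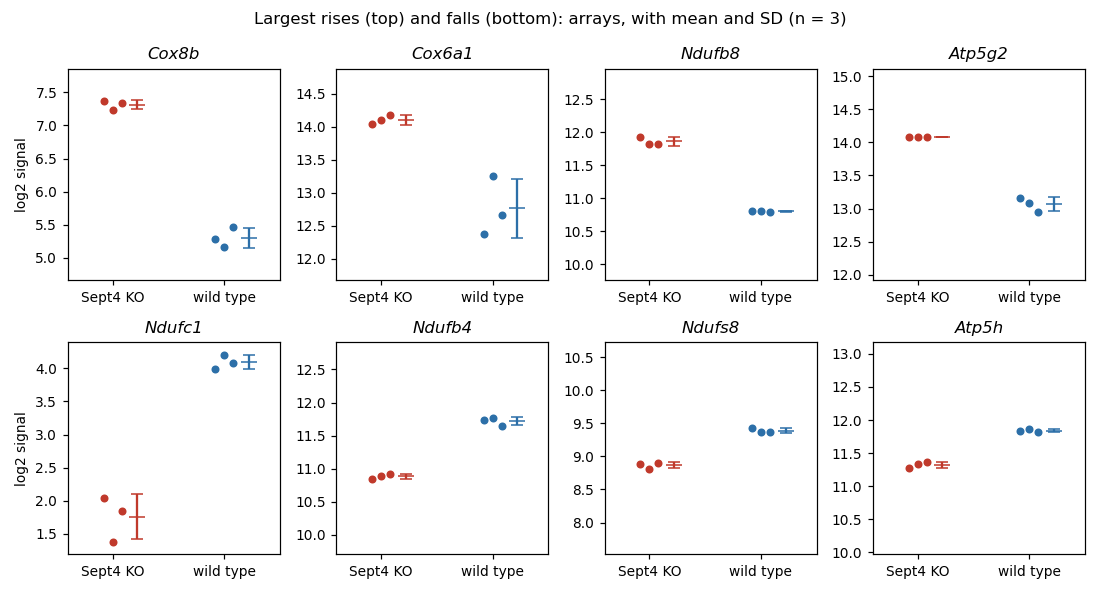
Log2 signal of 8 genes on the 3 Sept4 knockout arrays (left in each panel) and the 3 wild-type arrays (right), with the mean and SD (n = 3) beside the points. Each panel spans the same height in log2 units, and the upper genes are higher in the knockout and the lower ones lower. In none of the 8 do the groups overlap, but the genes were picked for their large differences.

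Ndufs5 was the only member with several probes, and they disagreed. The brighter probe had 12.61, 12.70 and 12.76 in knockout cells, against 12.38, 12.41 and 12.37 in wild-type cells, and rose by 0.30 with an adjusted p of 0.0113. The dimmer probe had 9.89, 9.96 and 9.99, against 10.48, 10.51 and 10.42 in wild-type cells, and fell by 0.52 with an adjusted p of 0.00166. The mean of both probes differed by -0.11 with an adjusted p of 0.17, so no direction can be given for this gene. Every other member rests on 1 probe, whose agreement with a second could not be seen.

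Within complex I the modules of the enzyme differed in their counts. The grouping follows the known structure and was made after the values had been seen, so it is a description, and no test between modules was run. In the N module, which holds the NADH-oxidising site, 7 of 9 genes rose and 0 fell, with a median of 0.51, and after quantile normalisation 7 were higher and 2 lower. These include the core subunits Ndufv1, which binds the flavin and rose by 0.52, and Ndufs1, which rose by 0.52. Its other core subunit, Ndufv2, did not pass, at -0.03. In the Q module, near the ubiquinone site, 3 of 5 genes rose and Ndufs8 fell, with a median of 0.20, whereas after quantile normalisation 1 was higher and 2 were lower, with a median of -0.01. The ND5 module at the far end of the membrane arm had 5 rises among 5 genes: Ndufb8, Ndufb2, Ndufb3 (0.79), Ndufb9 (0.67) and Ndufb7 (0.42). After quantile normalisation all 5 passed as well, with a median of 0.60. In the neighbouring ND4 module Ndufb4 and Ndufb5 fell, Ndufb10 did not pass at -0.03, and Ndufb11 rose by 0.35, and after quantile normalisation 1 of the 4 was higher and 3 were lower. The ND1 module had 3 rises of 4 and the ND2 module 4 of 5, with Ndufc1 as its fall, and after quantile normalisation 2 genes of each were higher. The 4 rises of the ND2 module include Ndufs5, whose probes disagree. The mitochondrial acyl carrier protein Ndufab1 did not pass, with a difference of -0.20.

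**Figure D5:**
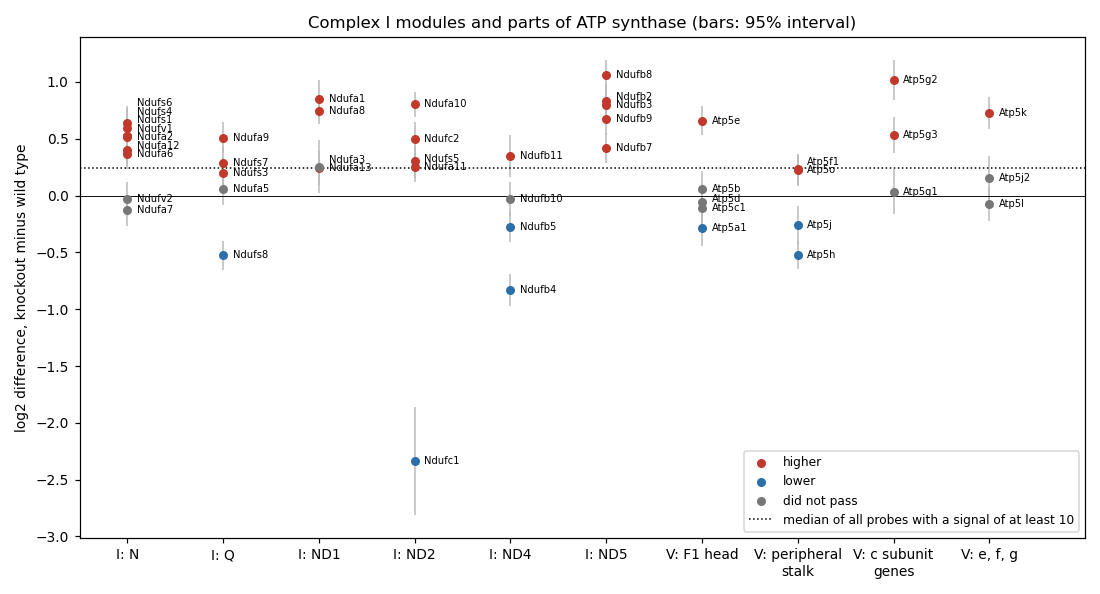
The vertical axis is the log2 difference, knockout minus wild type, of each gene, with its 95% interval as a bar. Columns are 6 modules of complex I and 4 parts of ATP synthase, colour gives the call, and the dotted line is the median of all probes with a signal of at least 10 (0.24). All 5 genes of the ND5 module lie above that line, and all but 4 genes of ATP synthase lie below it.

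Complex II, succinate dehydrogenase, belongs to the citric acid cycle as well, and 3 of its 4 genes rose. Sdhb, the iron-sulfur protein, had 10.62, 10.59 and 10.62 in knockout cells, against 10.003, 9.98 and 9.96 in wild-type cells. It rose by 0.63 ± 0.04 (SE), and it alone of the 4 also passed after quantile normalisation, at 0.45. The membrane anchor Sdhd had 11.73, 11.83 and 11.90, against 11.49, 11.52 and 11.50 in wild-type cells, and rose by 0.31 (0.13 after quantile normalisation). The other anchor, Sdhc, had 11.74, 11.75 and 11.75, against 11.62, 11.53 and 11.43, and rose by 0.22 (0.03 after it). Sdha, the flavoprotein, had 11.57, 11.59 and 11.57 in knockout cells, against 11.52, 11.44 and 11.40 in wild-type cells. Its difference of 0.12 did not pass, with an adjusted p of 0.12. All 4 had knockout arrays wholly above the wild-type arrays, as did 34.5% of all probes, a share not computed for bright probes. After quantile normalisation the difference of Sdha was -0.0669.

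Complex III, the cytochrome bc complex, had 3 rises among 8 genes and 0 falls. Uqcrfs1, the Rieske iron-sulfur protein, had 10.84, 10.85 and 10.91 in knockout cells, against 10.45, 10.36 and 10.28 in wild-type cells. The core protein Uqcrc2 had 13.35, 13.38 and 13.44, against 12.90, 12.92 and 12.87 in wild-type cells. These rose by 0.50 and 0.49, and after quantile normalisation by 0.33 and 0.26. The other core protein, Uqcrc1, had 10.44, 10.44 and 10.47, against 10.25, 10.21 and 10.13, and its rise of 0.25 no longer passed after that scaling. Cyc1, cytochrome c1, had 11.02, 11.09 and 11.07 in knockout cells, against 10.95, 10.85 and 10.73 in wild-type cells. Its groups did not overlap, but its difference of 0.21 had an adjusted p of 0.0635. The small subunit gene Uqcr differed by -0.18 with an adjusted p of 0.0543. Uqcrq lay near the lowest values, at 3.30, 3.14 and 0.32, against 3.26, 0.20 and 2.99, and its interval of -3.01 to 3.22 gives no direction. Cytochrome c (Cycs), the carrier between complexes III and IV, had 11.53, 11.50 and 11.51, against 11.09, 11.03 and 11.06 in wild-type cells, and rose by 0.45 ± 0.04 (SE), or by 0.28 after quantile normalisation.

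Complex IV, cytochrome c oxidase, holds the largest rises of all members. Of its 16 genes 10 rose, Cox7c fell and 5 did not pass, with a median difference of 0.40. After quantile normalisation 7 were higher and 1 lower, with a median of 0.19, and after cyclic loess 6 were higher and 2 lower, with a median of 0.16. Cox8b, the form of subunit 8 found in heart, skeletal muscle and brown fat, had 7.36, 7.24 and 7.34 in knockout cells, against 5.29, 5.16 and 5.46 in wild-type cells. It rose by 2.02 ± 0.09 (SE), or 4.05-fold, with an adjusted p of 0.00042. The common form, Cox8a, was bright, with 12.65, 12.58 and 12.54, against 12.42, 12.38 and 12.34 in wild-type cells. Its rise of 0.21 was lost after quantile normalisation, at 0.02. Cox8c, a testis form, was dim and did not pass.

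Other paralogue pairs of complex IV also had values for both forms. Cox6a1, the common form of subunit 6a, had 14.04, 14.10 and 14.18 in knockout cells, against 12.37, 13.25 and 12.67 in wild-type cells. It rose by 1.34 ± 0.23 (SE), and its wild-type arrays were the most scattered among bright members. The muscle form, Cox6a2, was dim, at 3.51, 3.95 and 3.93, against 3.19, 3.53 and 3.45, and its groups overlapped. Cox4i2, the form of subunit 4 known from lung and from low oxygen, had 7.12, 7.17 and 7.22, against 6.69, 6.57 and 6.63 in wild-type cells, and rose by 0.54. The common form, Cox4i1, had 12.98, 13.04 and 13.09, against 12.74, 12.72 and 12.57, and rose by 0.36. After quantile normalisation these rises were 0.46 and 0.16. Cox6b1 had 13.35, 13.40 and 13.49 in knockout cells, against 12.99, 12.99 and 12.95 in wild-type cells, and rose by 0.44 (0.22 after quantile normalisation). Its testis form, Cox6b2, was dim, at 4.28, 3.69 and 3.99, against 4.20, 4.53 and 4.45, and did not pass. No probe of the set is named for the muscle form Cox7a1 or for Ndufa4l2, so these were not analysed here.

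Among the remaining complex IV genes, Cox7b rose most. It had 13.37, 13.32 and 13.33 in knockout cells, against 12.54, 12.52 and 12.41 in wild-type cells, a rise of 0.85 that stood at 0.64 after quantile normalisation. Ndufa4 had 12.52, 12.56 and 12.58, against 12.19, 12.11 and 12.04 in wild-type cells, and rose by 0.44 (0.23 after the same scaling). Cox5b had 12.30, 12.31 and 12.29, against 11.999, 11.90 and 11.83 in wild-type cells, and rose by 0.39. Neither that rise nor the one of Cox6c, at 0.24, passed after either scaling, and Cox5b stood at 0.15 after quantile normalisation. Cox5a, at 13.47, 13.52 and 13.59, against 13.40, 13.45 and 13.25, did not pass. Cox7a2 had 13.38, 13.51 and 13.60, against 13.40, 13.45 and 13.39 in wild-type cells, and its groups overlapped. Cox7c, a small subunit, had 11.96, 12.08 and 12.12 in knockout cells, against 12.35, 12.40 and 12.34 in wild-type cells. It fell by 0.31 ± 0.06 (SE), with an adjusted p of 0.0125. Without wild type replicate 2 the fall of Cox7c did not pass.

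Complex V, the ATP synthase, moved in both directions. Of its 15 genes 6 rose, 3 fell and 6 did not pass, with a median difference of 0.06, below the 0.24 of bright probes. After quantile normalisation 3 genes were higher and 7 lower, with a median of -0.09, and after cyclic loess 4 were higher and 7 lower. The count of falls was 1 without Sept4 knockout replicate 1 or 2, or without wild type replicate 1 or 2, and the gene left was Atp5h in each case. Of the genes of F1, the part with the catalytic sites, Atp5e (epsilon subunit) had 13.09, 13.09 and 13.11 in knockout cells. Its wild-type signals were 12.50, 12.44 and 12.38. It rose by 0.66 ± 0.05 (SE). The alpha subunit Atp5a1 had 12.27, 12.31 and 12.40, against 12.63, 12.67 and 12.54, and fell by 0.28. The beta, gamma and delta subunits Atp5b, Atp5c1 and Atp5d did not pass, at 0.06, -0.11 and -0.06. After quantile normalisation these 3 passed as lower, by 0.23, 0.40 and 0.28.

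The rest of the synthase was as divided. In the peripheral stalk Atp5h, subunit d, had 11.27, 11.33 and 11.36 in knockout cells, against 11.83, 11.87 and 11.83 in wild-type cells. It fell by 0.52 ± 0.05 (SE), with an adjusted p of 0.00126. Atp5j, coupling factor 6, had 11.98, 12.08 and 12.17, against 12.31, 12.38 and 12.32, and fell by 0.26. The stalk genes Atp5f1 and Atp5o rose by 0.23 and 0.22, and neither passed after quantile normalisation. Atp5g1, Atp5g2 and Atp5g3 encode the same mature c subunit, whose ring turns in the membrane. Of these Atp5g2 had 14.08, 14.08 and 14.08, against 13.16, 13.09 and 12.95 in wild-type cells, and rose 2.02-fold. Atp5g3 had 15.45, 15.53 and 15.57, against 14.99, 15.05 and 14.90, and its rise of 0.53 was 0.15 after quantile normalisation, with an adjusted p of 0.0576. Atp5g1 was dimmer, at 7.31, 7.32 and 7.35, against 7.41, 7.31 and 7.16 in wild-type cells, and its groups overlapped. Of the small membrane subunits Atp5k (subunit e) had 12.12, 12.13 and 12.12, against 11.46, 11.41 and 11.32, and rose by 0.73. Its neighbours Atp5j2 (f) and Atp5l (g) did not pass.

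Of the 4 members that are no subunit, Cox7a2l and Ndufaf1 rose. Cox7a2l had 10.59, 10.58 and 10.59 in knockout cells, against 9.99, 9.92 and 9.84 in wild-type cells, a rise of 0.67. Ndufaf1 had 8.16, 8.16 and 8.03, against 7.59, 7.61 and 7.51 in wild-type cells, and rose by 0.55. Cox4nb and Atp5s did not pass, at 0.11 and -0.05.

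Genes that build the complexes gave more rises than falls as deposited, as did all probes of similar signal. Of 5 measured complex I assembly genes 3 rose and 0 fell, led by Foxred1 (0.60) and Nubpl, which delivers iron-sulfur clusters (0.53). Of 13 measured assembly genes of the other complexes 7 rose and 2 fell. Cox10 and Cox15, which make the heme of complex IV, rose by 0.67 and 0.64, and the complex V factor Tmem70 rose by 0.57. The copper chaperone Cox17 fell by 0.64, with 10.82, 10.91 and 10.96 in knockout cells, against 11.51, 11.55 and 11.55 in wild-type cells. The median differences of these lists were 0.18 and 0.19, against 0.12 for all probes. Their median signals were 8.06 and 8.70. Of all probes with a signal of 8 to 10, 47.2% were called higher and 22.1% lower. After quantile normalisation 2 complex I assembly genes were higher and 0 lower, and of the 13 others 5 were higher and 4 lower.

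Of 13 other genes tied to oxidative phosphorylation 8 rose (61.5%) and 1 fell. The median signal of the list was 10.7, and of probes with a signal of at least 10, 55.3% were called higher and 16.4% lower. Slc25a5, an exchanger of ADP and ATP across the inner membrane, had 12.72, 12.80 and 12.83 in knockout cells, against 14.29, 14.30 and 14.17 in wild-type cells. It fell by 1.47 with an adjusted p of 0.000356. The related exchanger Slc25a4 did not pass, at -0.19. Hccs, which attaches heme to cytochrome c, rose by 0.90, and the ATPase inhibitor Atpif1 by 0.25 (0.04 after quantile normalisation). After quantile normalisation 2 genes of this list were higher and 2 lower. Among 11 genes of coenzyme Q synthesis 3 rose and 4 fell. Coq2 rose by 0.76 and Coq9 by 0.58, while Pdss1 fell by 0.43 and Adck4 by 0.41. The median signal of these genes was 6.56, and of all probes with a signal of 6 to 8, 40.1% were called higher and 24.3% lower. After quantile normalisation 3 of the 11 genes were higher and 5 lower.

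Genes of the citric acid cycle, which supplies NADH and succinate, were listed with pyruvate dehydrogenase, its kinases and pyruvate carboxylase. Of 22 measured genes 17 rose (77.3%) and 2 fell, with a median difference of 0.42. The median signal of the list was 10.2, and 55.3% of bright probes were called higher and 16.4% lower. Idh2 had 10.99, 10.94 and 10.90 in knockout cells, against 10.08, 10.05 and 9.96 in wild-type cells, and rose by 0.91. Pyruvate carboxylase (Pcx) rose by 0.81 and fumarase (Fh1) by 0.66. Of the kinases that switch off pyruvate dehydrogenase, Pdk4 fell by 0.89, Pdk1 and Pdk3 rose by 0.52 and 0.36, and Pdk2 did not pass. After quantile normalisation 13 of the 22 genes of the list were higher and 3 lower, where 38.9% and 33.1% of bright probes were.

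Regulators of mitochondrial biogenesis did not move as a group. Of 25 measured genes 8 rose (32%) and 4 fell (16%), with a median of 0.11, against 0.12 for all probes. Their median signal was 6.91, and of all probes with a signal of 6 to 8, 40.1% were called higher and 24.3% lower. After quantile normalisation 7 of the 25 genes were higher and 5 lower, where 22.3% and 20.2% of all probes were. Nrf1 and Gabpa, whose motif cores were searched above, did not pass, at -0.08 and 0.18. The coactivator gene Ppargc1a was dim, with 3.69, 3.31 and 3.61 in knockout cells, against 2.02, 2.71 and 1.45 in wild-type cells, and rose by 1.48. Esrra, an orphan nuclear receptor that acts on these genes, rose by 0.63. Tfam, which packages mitochondrial DNA, fell by 0.20, Yy1 by 0.65 and the dim gene Ppara by 1.49.

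Markers of other cells are given because the arrays hold bulk RNA, in which fewer cells of a type and less RNA per cell cannot be told apart. For comparison, 26.7% of all probes were called higher and 16.0% lower. These shares were 9.01% and 7.18% at signals under 4, and 22.5% and 21.6% at signals of 4 to 6. Of 9 hepatocyte markers 2 were higher and 1 lower, and their log2 summed signal was 11.13 to 11.16 on knockout arrays and 10.89 to 10.96 on wild-type arrays. Of 7 macrophage markers 2 were higher and 1 lower, with sums of 12.18 to 12.26 and 11.91 to 11.999. In that list Cd5l and Clec4f rose by 0.49 and 0.52, and Emr1 fell by 1.27. Of 5 endothelial and 3 bile duct markers 0 passed, with sums of 7.01 to 7.35 on knockout arrays and 7.11 to 7.33 on wild-type arrays for the first list, and 5.28 to 5.55 and 4.93 to 5.24 for the second. Of 6 lymphocyte markers 1 was higher, with sums of 7.32 to 7.58 and 7.20 to 7.27, and of 4 neutrophil markers 1 was higher, with 6.42 to 6.66 and 6.15 to 6.31. At an array's lowest value were 2 lymphocyte markers and 0 in the other lists. Many markers were nevertheless dim, with a mean signal under 5, where all array medians were 5.02. These were 4 of 5 endothelial, 3 of 3 bile duct, 5 of 6 lymphocyte and 3 of 4 neutrophil markers. They also included 3 of 9 hepatocyte and 2 of 7 macrophage markers. Of 7 heart and skeletal muscle markers 1 was higher (Mb, by 0.44) and 1 lower (Tnnt2, by 1.08). Their sum was lower in the knockout, at 7.48 to 7.55, against 8.22 to 8.38 in wild-type cells. It rests mostly on Tnnt2, because the other 6 had mean signals under 5. The part of these cells in the differences above was not tested.

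Cox8b is known from brown fat, so genes of that tissue were also listed, after its value had been seen. Of 10 measured, 4 rose (40%) and 1 fell, where 26.7% of all probes were called higher and 16.0% lower. Cidea, a lipid droplet protein, had 7.93, 7.92 and 8.03 in knockout cells, against 5.13, 4.98 and 4.90 in wild-type cells, and rose by 2.96. Fabp4 rose by 0.69, Adipoq by 0.46 and Ppargc1a as given above. Ucp1, the protein that defines brown fat, was dim at 2.94, 3.68 and 3.21, against 3.31, 3.28 and 3.33 in wild-type cells, and did not pass. Zic1 fell by 0.44, and Prdm16 did not pass, at 0.11. Dio2, Elovl3 and Otop1 were dim and did not pass either.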

How the data were processed

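Total RNA, extracted with phenol and chloroform per the labels' protocols, was labelled with Cy5 and measured on arrays of 1 colour, 3 per genotype. The deposited values are log2 signals that the authors had quantile normalised, per the labels. Their log base is inferred from how far they spread. As deposited the arrays do not share 1 distribution, and between 940 and 1255 probes per array lie at its lowest value. Per the labels, labelling used a kit for microRNA and concerned tumour samples, unlike the stated design. No source used here states the background correction or the scanner.

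Probes were named from the platform annotation: of 23473, 16631 had 1 symbol, 6842 none and 0 several. Of the 81 members, 77 have the same symbol in RefSeq on GRCm38.p6 and 4 matched an older name. For a gene with several probes the brightest over the 6 arrays was used, and no filter on low values was applied, so all 81 were tested.

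Differences came from limma 3.58.1 in R 4.3.3 (lmFit, then eBayes), with Benjamini-Hochberg adjustment over all probes. The fit had 4 residual degrees of freedom, and its variance prior was worth 1.11 more. The number of arrays limits the precision. The fit was tested on simulated data. The members and lists were chosen with earlier results of these data known, and 1 wrongly listed gene was taken out of an assembly list afterwards. Values by array were printed for up to 4 rises and 3 falls per complex, all of complex II, Cycs, Cyc1, paralogue pairs and disagreeing probes. The genes printed from the other lists were up to 4 by size of difference, and others named beside them were chosen after their values were seen. Alternatives were 2 scalings, 2 probe filters, a linear offset, another variance prior, array weights, an ordinary test per probe, the replicate block, leaving out each array and averaging probes. Figures used matplotlib 3.10.9.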

Additional observations from a re-analysis of the deposited data

How the results depend on the processing

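The 48 rises, 8 falls and median of 0.29 depended most on scaling. After quantile normalisation the falls numbered 18 and the median was 0.13, and after cyclic loess 20 and 0.11. By complex, the scalings gave 9 falls in complex I under each, 1 rise in complex II under each, 1 and 2 falls in complex III with Cycs, 7 falls in complex V under each, 3 rises in complex V after quantile normalisation, and 6 rises and 2 falls in complex IV after cyclic loess. Complex III with Cycs had 1 fall (Uqcr) with array weights, the ordinary test per probe, the trended and robust prior, and without probes that were dim or at an array's lowest value. Leaving out 1 array gave 41 to 45 rises, 5 to 8 falls and a median of 0.25 to 0.31, with 0 to 1 falls in complex IV and 1 to 3 in complex V. The 5 falls were without wild type replicate 2.

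Samples with the same replicate number did not deviate together over all probes (correlations of 0.00775, -0.00135 and -0.00196). This cannot tell whether the numbers pair samples, so the fit without pairs is set beside one with them. With the replicate number as a block 36 members rose and 4 fell, with 0 falls in complex IV and 1 in complex V, and 4899 of all probes were called higher and 2825 lower, against 6271 and 3754 without it.

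Single genes turned their sign as follows. After quantile normalisation they were Atp5b (-0.23), Atp5f1 (-0.0598), Atp5g1 (-0.0625), Atp5j2 (-0.0922), Cox4nb (-0.0546), Cox5a (-0.12), Cox6c (-0.0506), Cox7a2 (-0.19), Ndufa5 (-0.16), Ndufs3 (-0.00854), Sdha (-0.0669), Uqcrb (-0.0908) and Uqcrh (-0.10). After cyclic loess they were Atp5b (-0.23), Atp5f1 (-0.0709), Atp5g1 (-0.0568), Atp5j2 (-0.0793), Cox4nb (-0.0504), Cox5a (-0.12), Cox6c (-0.0497), Cox7a2 (-0.19), Cox8a (-0.0331), Ndufa5 (-0.18), Ndufs3 (-0.0492), Sdha (-0.0902), Uqcrb (-0.14), Uqcrh (-0.12) and Uqcrq (-0.0335). Of these Atp5b, Ndufa5 and, after cyclic loess, Cox7a2 and Uqcrb passed as lower. With the mean of its probes Ndufs5 was at -0.11. Without 1 array Uqcrq ranged from -0.87 to 1.07, Ndufv2 from -0.0541 to 0.00354 and Atp5g1 from -0.0336 to 0.0931. The linear offset changed 0 of 81 calls. The cause of these changes was not tested beyond the shift of bright probes given above.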
